A study of Mus musculus with 2 samples.

Results

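The high mobility group (HMG) genes are a set of genes for small, abundant chromatin proteins, and 9 of the 39695 gene entries measured in postnatal day 9 (P9) mouse testes belonged to it. They were chosen by symbol and not by their values, but with earlier results of these data known. The members were *Hmga1* and *Hmga2* for the HMGA family, *Hmgb1*, *Hmgb2* and *Hmgb3* for the HMGB family, and *Hmgn1*, *Hmgn2*, *Hmgn3* and *Hmgn5* for the HMGN family. RNA was extracted from whole testes at 9 days of age and sequenced as 1 library from control males and 1 library from *Bcas2F/-;Vasa-Cre* males. BCAS2 is a component of the pre-mRNA splicing machinery, and *Hmga1* is one of the genes whose splicing the study followed. According to the study's methods, control males carried the *Bcas2F/-* genotype, so both groups inherited a floxed and a deleted allele. The mutants carried in addition *Vasa-Cre*, a recombinase transgene active in germ cells and not in the somatic cells of the testis. The labels name the strain C57BL/6, whereas the methods describe a line of mixed background, and the number of mice behind each library is not given in the sources used here. Each genotype had 1 library, so differences cannot be set against a spread between animals, and no test between genotypes was made.

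HMG proteins bind DNA or nucleosomes without being histones and change how tightly chromatin is packed. HMGA proteins hold AT-rich DNA in the minor groove through short AT hooks, HMGB proteins bend DNA with a folded domain called the HMG box, and HMGN proteins sit on the nucleosome core and loosen chromatin where linker histone H1 compacts it. Many of them are high in dividing and embryonic cells, and in mice both *Hmga1* and *Hmgb2* are known to be needed for normal spermatogenesis.

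*Hmga1* and *Hmgb2* were the members furthest below control in the mutant library among those well above the limit of detection. All other such members differed less, whether more or less abundant. The *Hmga1* level was 32.8% lower and the *Hmgb2* level 28.4% lower in *Bcas2F/-;Vasa-Cre* than in control testes. *Hmgb1* was 17.9% lower and *Hmgn1* 12.9% lower. *Hmgn2* and *Hmgn3* differed by less than 5%, and the X-linked *Hmgb3* and *Hmgn5* were 4.55% and 16.2% higher. Values are RPKM, the reads counted on a gene scaled to its length and to the counted reads of the library. The change is given as the log2 ratio of RPKM + 1 in mutant over control testes for genes whose mean over both libraries reached 1 RPKM, a minimum that 14831 genes and 8 of the 9 members passed. None of the 8 was past 1.5-fold, against 3.26% of all genes that passed (484 of 14831), of which 251 (1.69% of all) were lower and 233 (1.57%) higher. The median log2 ratio of the 8 members was −0.13, against 0.015 for all genes.

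**Figure D1:**
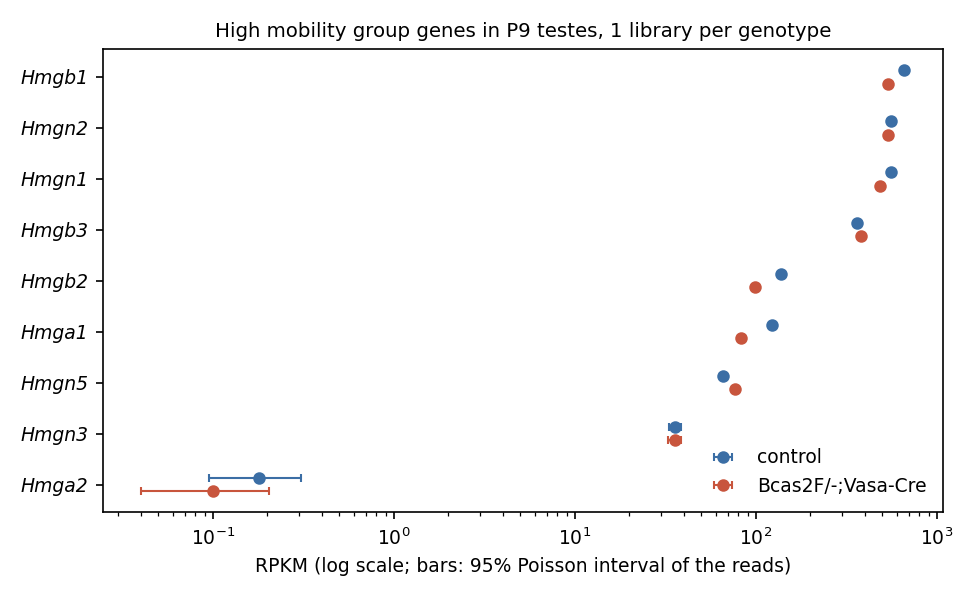
RPKM (log axis) of the 9 HMG genes in the control library (blue) and the *Bcas2F/-;Vasa-Cre* library (red), with bars for the 95% Poisson interval of the reads, which are narrower than most points. *Hmgb1*, *Hmgn2*, *Hmgn1* and *Hmgb3* lie highest in both libraries, and *Hmga2* lies far below the rest, at 0.179 and 0.0996.

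The plot of levels shows the same order in both libraries, from *Hmgb1* down through *Hmgn2*, *Hmgn1*, *Hmgb3*, *Hmgb2*, *Hmga1*, *Hmgn5* and *Hmgn3* to *Hmga2*. The RPKM of the members added up to 2493 in control and 2227 in mutant testes, and the 4 most abundant supplied 85.4% of the control sum. The HMGN genes made up 48.7% of that sum, the HMGB genes 46.3% and the HMGA genes 4.96%. These sums and shares depend on the gene lengths behind the deposited RPKM. At mean transcript lengths of the GENCODE M21 annotation, *Hmgb2* would be at 301 instead of 138 RPKM in control testes. The HMGB genes together would then lie above the HMGN genes in both libraries. Neighbours in the order were apart by more than counting error except for *Hmgn2* and *Hmgn1* in control testes, and for *Hmgb1* and *Hmgn2* and for *Hmga1* and *Hmgn5* in mutant testes, where the 95% intervals overlapped. Between families, the summed RPKM differed by a log2 ratio of −0.57 for HMGA, −0.19 for HMGB and −0.11 for HMGN.

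Reads could be recovered from the RPKM values, because each read adds a fixed step that depends on gene length and library size. The control library held 19918750 counted reads and the mutant library 19331687, and 78.5% and 78.7% of genes with a single annotated transcript had whole reads within 0.01. The targeted gene, *Bcas2*, was at 39.5 RPKM in control and at 25.7 in mutant testes, that is 1410 and 888 reads, with a log2 ratio of −0.60. Whole testis also holds somatic cells, in which *Vasa-Cre* is not active, and in such a mixture fewer cells of a type cannot be told apart from less RNA per cell. The 95% Clopper-Pearson intervals given for log2 RPKM ratios use no pseudocount and cover counting error only. Several gene lengths gave whole reads for *Hmgb1* (4 lengths), *Hmgn1* (3), *Hmgn2* (3), *Hmgn3* (2) and *Bcas2* (4), and for the copies *Hmga1b* (3) and *Gm10282* (4), so their read numbers and intervals are less certain than their RPKM.

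*Hmga1* encodes the AT-hook proteins HMGA1a and HMGA1b, which arise by splicing of the same gene. The gene (ENSMUSG00000046711) occupies bases 27556497 to 27563674 of chromosome 17 (GRCm38, plus strand), where GENCODE M21 lists 17 transcripts with 14 different start positions. Its RPKM was 123 in control and 82.9 in mutant testes, from 3270 and 2134 reads, so the mutant library was the lower one by far more than counting error. The log2 ratio was −0.57, with an interval from −0.65 to −0.49 that spans the 1.5-fold limit of −0.58. The 1142 genes from 100 RPKM upwards had a median log2 ratio of −0.026 with an SD of 0.152, and 7 of them (0.613%) were as low as *Hmga1*, itself included. In the ranking of all genes that passed the minimum, *Hmga1* stood at 866 in control and at 1449 in mutant testes. A value per gene adds up all first exons, so the use of alternative first exons of *Hmga1* was not analysed here.

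The 3 protein-coding genes with the RPKM pair most like that of *Hmga1*, by Euclidean distance over the log2(RPKM + 1) values of the 2 libraries, were *Eif1b*, *Tuba3b* and *Smc4*. *Eif1b*, a relative of a translation initiation factor, had 118 and 89.4 RPKM in control and mutant testes, at a distance of 0.123. *Tuba3b*, an α-tubulin gene, had 136 and 83.1 RPKM, at a distance of 0.145. *Smc4*, a condensin subunit, had 115 and 89.2 RPKM, also at 0.145. Likeness over 2 values says only that the levels were close in both libraries.

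*Hmga1* has a near-identical intronless copy, *Hmga1b*, on chromosome 11 from 120762794 to 120764419, and the pair of sequences is shown because reads can be told apart only where they differ. Over 1602 aligned bases, 3 differed, at aligned positions 657, 784 and 1246 counted from the first aligned base. The 29 bases around each position follow in that order, 5′ to 3′ from the GENCODE M21 transcripts, with the differing base in capitals.
Hmga1: ttagccgcagcccgAcctgctgcgcacct
Hmga1b: ttagccgcagcccgGcctgctgcgcacct
Hmga1: ccttaaggggccccAgccccatctcactc
Hmga1b: ccttaaggggccccGgccccatctcactc
Hmga1: ggttgtgttgttttGtttttgttccatgt
Hmga1b: ggttgtgttgttttTtttttgttccatgt
*Hmga1b* was at 0.467 RPKM in control and 0.361 RPKM in mutant testes, from 8 and 6 reads at the length taken (860 bases), or 0.245% and 0.281% of the reads on *Hmga1*. Adding the copy to *Hmga1* left the log2 ratio at −0.57.

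*Hmga2* encodes the second AT-hook protein of the family, which is abundant in embryos and absent from most adult tissues. The gene (ENSMUSG00000056758, chromosome 10 from 120361275 to 120476469, minus strand) was near the limit of detection, with an RPKM of 0.179 from 13 reads in control and 0.0996 from 7 reads in mutant testes. The interval of its log2 RPKM ratio ran from −2.42 to 0.58, so a difference was not detectable at this depth. Its antisense neighbour *1700006J14Rik*, which shares 140 exon bases with it, had RPKM values of 0.581 and 0.471, and the library kit does not mark the strand.

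**Figure D2:**
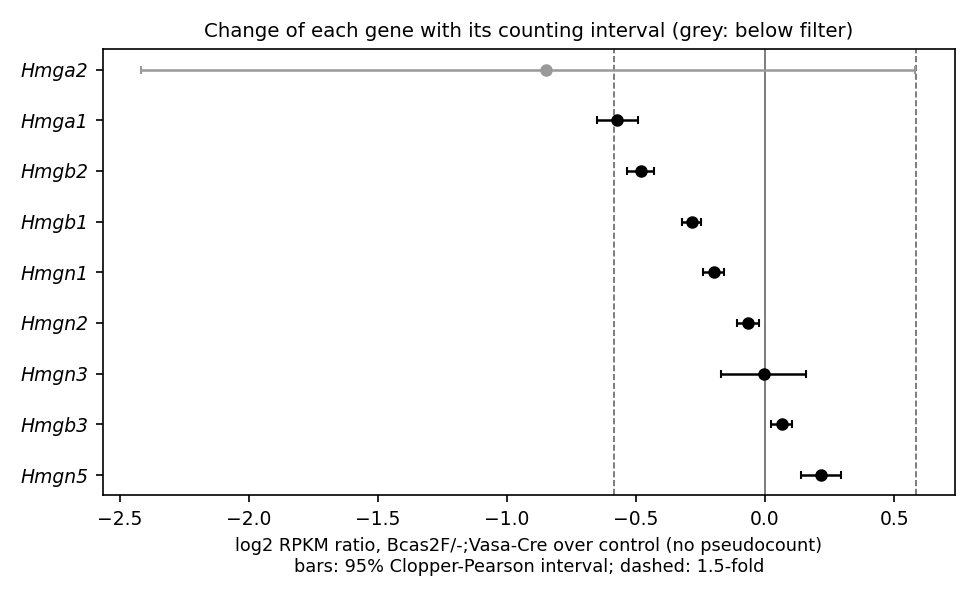
Log2 RPKM ratio of *Bcas2F/-;Vasa-Cre* over control testes for each HMG gene, without pseudocount, with the 95% Clopper-Pearson interval of counting error and dashed lines at 1.5-fold. *Hmga1* lies at the lower line with *Hmgb2* beside it, *Hmgn5* is highest, and the interval of *Hmga2* (grey, below the minimum RPKM) spans from −2.42 to 0.58.

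Of the HMGB genes, which encode DNA-bending proteins that also act as alarm signals outside the cell, *Hmgb2* was the lowest in mutant testes relative to control. *Hmgb2* (ENSMUSG00000054717, chromosome 8 from 57511907 to 57515999, plus strand) is the family member known for high expression in the testis. The control library gave 138 RPKM from 7397 reads and the mutant library 98.8 RPKM from 5142 reads. The log2 ratio was −0.48, with an interval from −0.53 to −0.43 that did not reach 1.5-fold, and 13 of the 1142 genes of at least 100 RPKM (1.14%) were as low, itself included. Its rank among all genes went from 743 in control to 1162 in mutant testes. The level of *Hmgb2* depends on the gene length behind the RPKM. The deposited values correspond to 2692 bases, whereas the mean transcript length in GENCODE M21 is 1234 bases, at which the RPKM would be 301 and 216. The order of the 9 levels was the same at GENCODE lengths in both libraries, and the ratio between the libraries does not depend on length.

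*Hmgb1*, the most abundant member and the best-known alarm protein of the family, differed less. The gene (ENSMUSG00000066551, chromosome 5 from 149046702 to 149184489, minus strand) gave 654 RPKM from 13936 reads in control and 537 RPKM from 11106 reads in mutant testes. The log2 ratio was −0.28, with an interval from −0.32 to −0.25, and 53 genes of its RPKM class (4.64%) were as low. Its level stayed above those of *Hmgn2* and *Hmgn1*, although only just in the mutant library.

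*Hmgb3*, an X-linked gene known from blood progenitor cells, was on the other side of 0. The gene (ENSMUSG00000015217, chromosome X from 71555918 to 71560676, plus strand) gave 362 RPKM from 9700 reads in control and 379 RPKM from 9842 reads in mutant testes. Its log2 ratio of 0.064, with an interval from 0.024 to 0.10, was well inside the SD of 0.152 for genes of similar RPKM, and 287 of the 1142 (25.1%) were as high.

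The 250 bases before the RefSeq start site (GRCm38.p6) were searched for CCAAT or its reverse complement ATTGG, the letters bound by the NF-Y factor. *Hmgb2* and *Hmgb3* are shown, 5′ to 3′ on the strand of the gene with the matches in capitals, because their windows held 4 and 3 matches while their RPKM ratios lay on opposite sides of 0. The *Hmgb2* window is chr8:57511593-57511842 and the *Hmgb3* window is chrX:71555667-71555916.
Hmgb2: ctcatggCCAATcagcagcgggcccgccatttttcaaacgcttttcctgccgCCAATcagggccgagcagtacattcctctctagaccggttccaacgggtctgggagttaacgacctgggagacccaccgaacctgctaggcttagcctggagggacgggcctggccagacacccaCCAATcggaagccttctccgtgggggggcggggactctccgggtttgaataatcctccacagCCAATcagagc
Hmgb3: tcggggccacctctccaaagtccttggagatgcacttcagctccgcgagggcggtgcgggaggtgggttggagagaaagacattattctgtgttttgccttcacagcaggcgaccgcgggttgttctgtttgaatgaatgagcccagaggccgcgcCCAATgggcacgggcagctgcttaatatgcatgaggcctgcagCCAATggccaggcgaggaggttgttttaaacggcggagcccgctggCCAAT
Of 32851 RefSeq windows, 33.8% held at least 1 match and 276 (0.840%) held 4 or more. *Hmgb1* had 3 matches at one of its start sites and 0 at another, *Hmgn1* and *Hmgn5* had 2 each, and *Hmga1*, *Hmga2* and *Hmgn2* had 0. In all, 5 of the 8 members with a window held the letters, and *Hmgn3* had no entry. Matches to GGGCGG or CCGCCC, the GC box letters, were found in 32.7% of all windows and in 7 of the 8 members, all but *Hmgn5*. They numbered 3 and 4 in the 2 overlapping *Hmga1* windows, whose starts lie 30 bases apart, 4 at one *Hmgb1* start and in *Hmgn1*, 2 in *Hmgn2*, and 1 each in *Hmga2*, *Hmgb2* and *Hmgb3*. Not every window lies outside the gene as GENCODE M21 draws it, since RefSeq and GENCODE differ in start sites. The *Hmga1* windows overlap it by 77 and 107 bases, those of *Hmgn5* and *Hmgn1* by 24 and 4, and those of *Hmgb1* and *Hmgn2* by all 250. TATAAA or TTTATA was in 12.4% of all windows and in none of the members' windows. A match describes the sequence and not the binding of a factor.

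The HMGN genes, which encode nucleosome-binding proteins, differed from *Hmgn1* below control to *Hmgn5* above it. *Hmgn1* (ENSMUSG00000040681, chromosome 16 from 96120618 to 96127729, minus strand) gave 555 RPKM from 10776 reads in control and 483 RPKM from 9112 reads in mutant testes. Its log2 ratio was −0.20, with an interval from −0.24 to −0.16, and 137 of the 1142 genes of its class were as low. *Hmgn3* (ENSMUSG00000066456, chromosome 9 from 83109948 to 83146685, minus strand), the HMGN gene known for its part in insulin secretion, was nearly level. At 35.7 RPKM in control and 35.5 in mutant testes, from 629 and 608 reads, its log2 ratio was −0.0057 (interval −0.17 to 0.16), and 0.022 once both libraries were rescaled to the same RPKM sum.

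*Hmgn5*, the X-linked HMGN gene whose protein carries a long acidic tail, was the member with the highest ratio. The gene (ENSMUSG00000031245, chromosome X from 109004534 to 109013404, minus strand) gave 66.0 RPKM from 2541 reads in control and 76.7 RPKM from 2866 reads in mutant testes. The log2 ratio was 0.21 with an interval from 0.14 to 0.29. In its class of 4869 genes between 20 and 100 RPKM, which had an SD of 0.167, 305 (6.26%) were as high, itself included. It stood at rank 1949 in control and 1614 in mutant testes, so that *Hmgn5* came close to *Hmga1* in the mutant library. This closeness depends on gene length. At its GENCODE mean transcript length, *Hmga1* would be at 98.4 RPKM in mutant testes, and *Hmgn5* would stay at 76.7.

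*Hmgn2* (ENSMUSG00000003038, chromosome 4 from 133964738 to 133968650, minus strand) gave 558 RPKM from 9539 reads in control and 533 RPKM from 8845 reads in mutant testes. Its log2 ratio was −0.066, with an interval from −0.11 to −0.024. The value is uncertain beyond counting error, because *Hmgn2* was the member with the largest share of reads on near-identical copies. The processed pseudogene *Gm10182*, at chr9:22321105-22321377 on the minus strand of GRCm38, carries the *Hmgn2* coding sequence without a difference over its 273 annotated bases, which are contained in 2 *Hmgn2* transcripts. Its sequence is shown 5′ to 3′ from GENCODE M21, with the start and stop codons in capitals, since a read inside it fits both genes.
Gm10182: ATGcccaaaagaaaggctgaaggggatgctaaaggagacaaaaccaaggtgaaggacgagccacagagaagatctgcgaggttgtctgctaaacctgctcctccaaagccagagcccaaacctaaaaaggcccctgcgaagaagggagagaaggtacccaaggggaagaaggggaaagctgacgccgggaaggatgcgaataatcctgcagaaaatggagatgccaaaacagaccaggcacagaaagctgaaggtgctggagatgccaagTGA
*Gm10182* stood at 37.3 RPKM in control and 25.2 RPKM in mutant testes. These values are whole reads, 815 and 535, only at a length of 1097 bases, longer than the GENCODE M21 model. Its log2 ratio of −0.55 (interval −0.72 to −0.40) lay well below that of *Hmgn2*, with no overlap of the counting intervals. *Gm10282*, a second copy on chromosome 8 from 72304110 to 72305260 with 99.3% identity, was at 6.02 and 4.42 RPKM, from 139 and 99 reads, so that its log2 ratio was −0.37. All copies of *Hmgn2* together held 958 reads in control and 637 in mutant testes, which amount to 10.0% and 7.20% of the reads on *Hmgn2* itself. With their reads added, the *Hmgn2* log2 ratio was −0.10.

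Copies of the other members held smaller shares of the counted reads. Reads that fit both a member and a copy may have been split or dropped in counting, and such reads cannot be seen here. In GENCODE M21, 186 protein-coding genes or pseudogenes matched a member at 90% identity or more over at least 50% of their longest transcript, 126 of them for *Hmgb1*. Of the 186, 89 were among the entries, 47 at 0 in both libraries and 42 above 0, and 6 reached a mean of 1 RPKM. Beside the *Hmgn2* copies these were *Gm2710* for *Hmgb1* (7.48 in control and 7.28 in mutant), *Gm13237* for *Hmgb2* (2.93 and 2.04), *Gm6104* for *Hmgb3* (1.64 and 1.02) and *Gm7862* for *Hmgn1* (1.38 and 1.43). The highest copy of *Hmgn5*, *Gm11914*, was at 0.198 RPKM in control and 0.306 RPKM in mutant testes. For members other than *Hmgn2*, copies held at most 1.56% of the member's reads, the share on *Hmgb1* in mutant testes. Exons of *AI413582* on the opposite strand share 102 bases with *Hmga1*, and its RPKM was 7.35 in control and 7.27 in mutant testes. *Hmgn3* shares 255 opposite-strand bases with *Gm29054* and 30 with *Gm2065*, neither of which has a value here. *Uspl1* shares 42 opposite-strand bases with *Hmgb1* at an RPKM of 29.0 and 29.1, so reads in these stretches cannot be assigned to a strand.

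**Figure D3:**
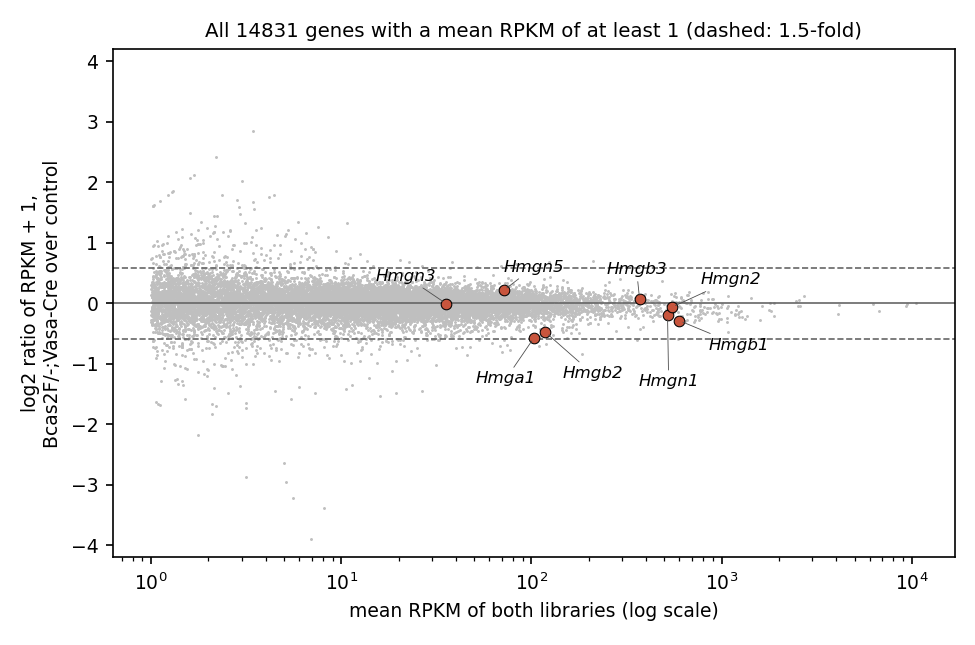
Log2 ratio of RPKM + 1, *Bcas2F/-;Vasa-Cre* over control, against mean RPKM (log axis) for the 14831 genes that passed the minimum (grey), with the 8 HMG genes that passed in red and dashed lines at 1.5-fold. *Hmga1* and *Hmgb2* lie at the lower edge of the genes of similar RPKM, and the other 6 lie within the cloud.

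The plot of all genes against RPKM shows that spread narrowed with abundance. In genes of 1 to 5 RPKM, 8.01% were past 1.5-fold, against 0.698% between 20 and 100 RPKM and 0.613% from 100 RPKM. The 8 members that passed all belonged to the last 2 classes, so their count of 0 past 1.5-fold is to be read against these smaller shares.

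Genes related to HMG proteins were examined as lists. Among 15 other chromatin proteins with an HMG box, 14 passed the minimum, 5 were below 0 and 9 above, and the median log2 ratio was 0.11. The most abundant were *Ssrp1*, a subunit of the histone chaperone FACT, at 225 RPKM in control and 208 in mutant testes, and *Smarce1*, a subunit of the SWI/SNF remodelling complex, at 162 and 160. *Tox3* was the 1 gene of the list past 1.5-fold, at 4.24 and 2.49 RPKM. It belongs to the class of 1 to 5 RPKM, where 8.01% of genes were past it. Of 23 transcription factors with an HMG box, the SOX and TCF/LEF proteins among them, 18 passed, 0 were past 1.5-fold and 12 were above 0, with a median of 0.081. *Hbp1* and *Cic*, transcriptional repressors, were the most abundant of these, at 198 and 209 RPKM and at 91.2 and 102 RPKM in control and mutant testes. The median of both lists lay above 0, whereas that of the HMG members lay below it. Over all genes that passed the minimum, 46.3% were below 0 and the median was 0.015.

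Linker histones H1, which compete with HMG proteins for nucleosomes, had 4 of 10 genes above the minimum, 2 on each side of 0 and none past 1.5-fold. The study sequenced isolated mRNA, and how well that step keeps transcripts of the clustered *Hist1h1* genes was not tested. A low RPKM of these genes therefore need not mean low expression. *H1f0* had 192 RPKM in control and 202 in mutant testes and *H1fx* had 16.2 and 13.3. A list of 14 regulators, partners and receptors of HMG proteins had 13 genes above the minimum, of which 9 were below 0 and none was past 1.5-fold, with a median of −0.11. Its most abundant genes, the histone chaperone genes *Set* and *Anp32a*, were at 341 and 350 RPKM and at 316 and 314 RPKM. *Lin28a*, which keeps *let-7* microRNAs and so the repression of *Hmga2* low, had 96.6 and 75.5 RPKM. *Lin28a* was chosen after its values were seen.

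**Figure D4:**
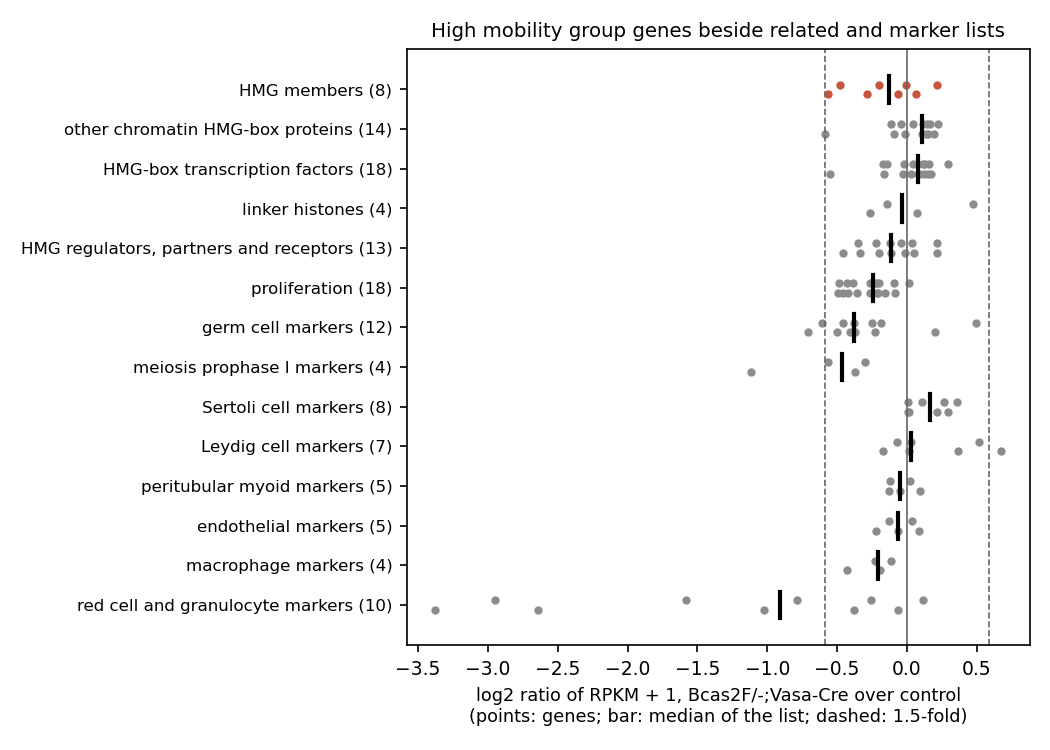
Log2 ratio of RPKM + 1, *Bcas2F/-;Vasa-Cre* over control, for the genes of each list above the minimum (points, number in brackets), with the median as a bar and dashed lines at 1.5-fold. The HMG members (red) have a median of −0.13, between the proliferation list at −0.24 and the Sertoli cell list at 0.16.

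Most markers of dividing cells and of germ cells had log2 ratios below 0, as had *Hmga1* and *Hmgb2*, but few were past 1.5-fold. Of 18 proliferation genes, 17 were below 0, against 46.3% of all genes that passed the minimum (6873 of 14831), and none was past 1.5-fold, with a median of −0.24. *Top2a*, the topoisomerase of dividing cells, had 207 RPKM in control and 147 in mutant testes, and *Pcna*, the replication clamp, had 185 and 142. Their log2 ratios were −0.49 and −0.38, against −0.48 for *Hmgb2*, and both lay below the median of the list. The list ranged from −0.49, the value of *Top2a* itself, to 0.013. Of 12 germ cell markers, 10 were below 0 and 2 were past 1.5-fold, both lower, with a median of −0.38, and their summed RPKM was 705 in control and 532 in mutant testes. *Sall4*, a factor of undifferentiated spermatogonia, had 26.6 and 15.9 RPKM, and *Stra8*, induced by retinoic acid before meiosis, had 87.2 and 56.8. *Nanos2*, a factor of the spermatogonial stem cells, and *Sohlh2*, a factor of spermatogonial differentiation, were the 2 above 0, with log2 ratios of 0.49 and 0.20, and were named after their values were seen. *Dazl* and *Mael*, the most abundant of the list, had 165 and 125 RPKM and 141 and 99.5 RPKM. In the study's real-time RT-PCR of P9 testes, *Ddx4*, *Sohlh1*, *Sohlh2*, *Kit*, *Dazl*, *Stra8* and *Nanos2* mRNA was similar in both genotypes. The lower values of germ cell markers here come from 1 library per genotype. All 4 markers of meiotic prophase I were below 0, with a median of −0.47, and the study's RT-PCR also found these 4 lower. *Smc1b*, a meiotic cohesin subunit, was the 1 past 1.5-fold, at 25.6 and 11.3 RPKM, while the synaptonemal complex genes *Sycp1* and *Sycp3* had 26.1 and 17.3 RPKM and 24.1 and 19.4 RPKM.

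Somatic markers lay near or above 0, except for those of blood cells and macrophages. All 8 Sertoli cell markers above the minimum were above 0, with a median of 0.16 and a summed RPKM of 1060 in control and 1182 in mutant testes, and *Rhox5* was listed at 0 in both. *Inha*, the inhibin α subunit, had 296 and 345 RPKM, and *Cldn11*, a tight junction protein, had 232 and 234. Of 7 Leydig cell markers, *Cyp17a1*, an enzyme of androgen synthesis, was higher past 1.5-fold at 94.8 and 152 RPKM, and the median was 0.028. *Hsd3b1*, another enzyme of steroid synthesis, had 189 and 168 RPKM. The medians were −0.049 for 5 peritubular myoid, −0.062 for 5 endothelial and −0.21 for 4 macrophage markers, with none past 1.5-fold. *Acta2* and *Tagln*, contractile genes of the myoid cells, had 344 and 314 RPKM and 110.0 and 106 RPKM in control and mutant testes. The endothelial junction genes *Cdh5* and *Pecam1* had 18.7 and 17.9 RPKM and 9.34 and 8.45 RPKM, and the macrophage lysosomal genes *Lyz2* and *Cd68* had 59.1 and 43.6 RPKM and 7.29 and 6.64 RPKM. Of 10 red cell and granulocyte markers, 6 were lower past 1.5-fold and the median was −0.91. They were *Slc4a1*, *S100a9*, *S100a8*, *Ngp*, *Hbb-bt* and *Camp*, with log2 ratios from −3.38 for *Slc4a1* to −0.79 for *Camp*, while the globin genes *Hbb-bs* and *Hba-a1*, the most abundant of the list, had 551 and 596 RPKM and 197 and 164 RPKM. The part of these germ cell, dividing-cell and blood cell markers in the HMG values was not tested.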

How the data were processed

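The authors prepared libraries from whole P9 testes with a kit that does not mark strand, aligned paired-end reads with TopHat2 2.0.9 to mm10 (version and build per the submitters' processing notes), counted them with HTSeq and deposited RPKM values, 1 per gene entry and library. The annotation release, gene lengths and counting mode are not given in the sources used here. Of 39695 entries, 37692 (95.0%) were matched by Ensembl identifier to GENCODE M21 on GRCm38.

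Log2 ratios used a pseudocount of 1, which understates changes of low genes. Counted reads came from library sizes given by 1319 and 1329 single-read genes. Where several lengths gave whole reads, the one nearest the GENCODE mean transcript length was taken, and for copies without a solution within the exons, up to 5 times that length. Intervals (95%) and the recovery of reads were tested on simulated data in which each gene had its GENCODE mean transcript length. Such data cannot show how well reads are recovered where the length differs, as for *Hmgb2*. Copies were found with BLAST+ 2.17.0. Promoters are from RefSeq, GRCm38.p6, where 8 of the 9 members were matched.

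The members and the gene lists (other chromatin HMG-box proteins, HMG-box transcription factors, linker histones, HMG regulators, partners and receptors, proliferation, germ cell, meiosis prophase I, Sertoli, Leydig, peritubular myoid, endothelial, macrophage, and red cell and granulocyte markers) were chosen with earlier results of these data known. All members and *Bcas2* are named. From each list, genes past 1.5-fold and the 2 most abundant are named, with copies of at least 1 mean RPKM or else the highest, and the 3 genes nearest to *Hmga1*. Python 3.11.15 with numpy 2.4.6, pandas 2.3.3, scipy 1.17.1, biopython 1.88 and matplotlib 3.10.9 was used. Alternatives were pseudocounts of 0.1 and 0.01, a median set to 0, rescaling to a sum of 1000000, no minimum or a minimum of 5 RPKM, and members with their copies.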

Additional observations from a re-analysis of the deposited data

How the results depend on the processing

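None of the members above the minimum was past 1.5-fold under any of the 7 alternatives tried, and 0 of the 45 values of single members under these alternatives moved by more than the member's counting error. The sign of *Hmgn3* alone turned, to 0.022 after rescaling. *Hmga2*, below the minimum, went from −0.10 to −0.79 with a pseudocount of 0.01. The median log2 ratio of the members ranged from −0.15, with the copies added, to −0.10, without a minimum RPKM. *Hmga1* stayed within −0.58 and −0.54. The number of genes in the other lists past 1.5-fold was 11, and between 8 (minimum of 5 RPKM) and 16 (pseudocount of 0.01). Of 78 list medians under the alternatives, 8 moved by more than 0.047, the median counting error of the members, and none changed sign. No paired analysis was possible because each genotype had 1 library. Depth limits *Hmga2* and the low copies. The spread between animals could not be measured for any member.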

Other observations

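The X chromosome carried 2 members, *Hmgb3* and *Hmgn5*, and these were the members above 0. This grouping was chosen after their values were seen. Over the 607 X-linked genes that passed the minimum RPKM, the median log2 ratio was 0.044, against 0.012 for 13804 autosomal genes. Among genes of at least 20 RPKM, 233 X-linked genes had a median of 0.040, with 60.5% above 0, and 5740 autosomal genes had a median of 0.0018, with 50.5% above 0.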
